A study of Mus musculus with 10 samples.

Results

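Replication-dependent histone genes encode the linker histone H1 and the core histones H2A, H2B, H3 and H4 that package newly made DNA. They were taken as the genes with an older symbol of the Hist1 to Hist4 series or a current symbol of the H1f1 to H1f6, H2ac, H2bc, H3c or H4c series, and 73 genes of the RefSeq table matched. Of these, 61 had a probe on the array, among 19057 named genes in all, and each was represented by its probe with the highest mean intensity over the arrays. The probe of 52 genes was kept, meaning that it was detected above the negative controls (at a detection p under 0.05) in 5 or more of the 10 mice. These comprised 4 of 7 H1, 15 of 17 H2A, 12 of 15 H2B, 8 of 9 H3 and 13 of 13 H4 genes. The other 12 matching genes, 4 of them pseudogenes, had no named probe and were not analysed here.

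RNA came from LSK cells, the lineage-negative, Sca1-positive and cKit-positive cells of bone marrow that include haematopoietic stem cells and multipotent progenitors. Cells of 5 control and 5 LysM-KI mice were compared, 1 Illumina array per mouse. Both groups carried the strain label LysMCre, a line in which the Lyz2 locus drives Cre recombinase, and were aged 9 to 16 weeks. The labels do not name the allele behind LysM-KI, and Lyz2 is chiefly a gene of myeloid cells, so the share of LSK cells with the altered allele is not given in the sources used here. Levels are log2 intensities after background correction and quantile normalization. A log2 fold change is the LysM-KI mean minus the control mean on that scale. Probes bind with different strength, so expression was compared between mice and not between genes, and signal was set between probes only to pick and sort them. Arrays are numbered by group and replicate.

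Histone messages of this kind are made mainly while DNA is replicated, and they end in a conserved stem-loop in place of a poly(A) tail. The stem-loop binding protein SLBP and the U7 small nuclear RNP direct the cut that forms this end, and NPAT, a coactivator that acts with the S phase cyclin-dependent kinase, drives transcription of the clustered genes. The genes lie in a few clusters and many occur as H2A and H2B genes that face away from one another across a shared promoter. Members of a class are nearly identical in coding sequence, and all H4 genes encode the same protein. A probe of one gene may therefore also bind messages of other genes of its class, and the probes of one class are not independent measurements. The amplification kit named in the labels, WT-Ovation Pico, primes with random as well as oligo-dT primers, so messages without a poly(A) tail are not left out by design.

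Promoter sequences of RefSeq (GRCm38.p6) were available for 55 of the 61 genes. Within the 250 bases upstream of the start, and on both strands, the octamer ATTTGCAT, the site in H2B promoters that is bound by the POU factor Oct-1, occurred in 6 of 12 H2B and 7 of 17 H2A promoters. It occurred in 0 of 7 H1, 0 of 7 H3 and 0 of 12 H4 promoters, and in 1.61% of all 27025 promoters of the same length. CCAAT was found in 80.0% of the histone promoters against 34.5% of all, with 17 of 17 H2A and 12 of 12 H2B promoters but 3 of 12 H4 promoters among them. TATAAA was present in 26 of the 55 against 3504 of all 27025, and the H1 box AAACACA in 5 of 7 H1 promoters against 6.22% of all. Promoters of facing genes overlap, so one match can count for both. The 5 stretches printed here belong to genes whose values the results turn on: the shared promoter of H2ac12 and H2bc12, that of H2ac8 and H2bc8, and the upstream regions of 1 H1, 1 H3 and 1 H4 gene. They are written 5′ to 3′ toward the named gene, with every match to the 4 motifs on either strand in capitals. No 2 matches overlapped in them. A match is a run of letters and does not show that a factor binds.
H2bc12 (chr13:22035644-22035820, plus strand): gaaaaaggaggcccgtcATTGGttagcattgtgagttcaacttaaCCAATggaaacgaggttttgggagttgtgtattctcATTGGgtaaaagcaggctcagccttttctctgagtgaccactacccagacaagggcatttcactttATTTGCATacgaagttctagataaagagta
H2bc8 (chr13:23571221-23571399, plus strand): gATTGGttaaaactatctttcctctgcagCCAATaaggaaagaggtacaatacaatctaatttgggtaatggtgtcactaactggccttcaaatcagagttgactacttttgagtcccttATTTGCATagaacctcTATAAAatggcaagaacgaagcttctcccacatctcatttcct
H1f2 (chr13:23738557-23738806, plus strand): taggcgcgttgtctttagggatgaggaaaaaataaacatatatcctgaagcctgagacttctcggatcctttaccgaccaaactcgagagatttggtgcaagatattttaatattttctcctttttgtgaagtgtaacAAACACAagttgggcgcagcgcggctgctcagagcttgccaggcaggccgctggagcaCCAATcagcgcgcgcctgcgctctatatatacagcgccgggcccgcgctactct
H3c8 (chr13:23535168-23535417, plus strand): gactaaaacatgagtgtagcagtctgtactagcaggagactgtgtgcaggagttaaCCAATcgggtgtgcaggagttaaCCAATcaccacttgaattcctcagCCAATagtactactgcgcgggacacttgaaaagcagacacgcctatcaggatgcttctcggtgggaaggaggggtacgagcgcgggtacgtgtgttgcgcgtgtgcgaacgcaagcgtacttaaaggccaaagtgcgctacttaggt
H4c4 (chr13:23581318-23581567, plus strand): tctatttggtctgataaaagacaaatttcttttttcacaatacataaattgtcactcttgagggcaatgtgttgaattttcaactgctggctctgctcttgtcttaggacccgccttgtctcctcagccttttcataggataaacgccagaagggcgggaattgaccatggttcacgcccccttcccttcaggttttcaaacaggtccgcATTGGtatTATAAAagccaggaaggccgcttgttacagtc

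The question was which histone messages of LSK cells differ with the LysM-KI genotype. Most histone genes stood close to their control level. The fold changes of 46 of 52 genes lay within 0.5 of 0 on the log2 scale, and the median was -0.11 with a range from -0.85 for H2ac6 to 1.02 for H3c8. Of the 52, 36 (69.2%) were below 0, against 46.6% of all 17245 kept probes, whose median was 0.03. This share has no test, since probes of a class are not independent. With arrays scaled by their medians, which moved the median of all kept probes to 0.13, 30 of 52 were below 0. None passed the adjusted threshold: limma called 0 of 52 histone genes and 0% of all kept probes at an adjusted p under 0.05 (smallest adjusted p of a histone gene 0.881). At an unadjusted p under 0.05, 0 histone genes were lower on the probe used, against 1.94% of all kept probes. On the same probes 1 of 52 was higher, H2bc8, against 3.40%. A single gene in 52 is no more than that background. Nor did any histone gene separate the groups completely: 0 had every LysM-KI array below every control array (0.336% of all kept probes) and 0 had every one above (0.574%). All 5 LysM-KI arrays lay below the control mean for 12 genes (23.1%, against 9.10% of all kept probes) and above it for 4 genes (7.69%, against 11.4%). The 4 were H1f5, H2bc8, H3c14 and H3c8, of which H3c14 had a log2 fold change of 0.10 on the probe used and of -0.57 on a dim second probe detected on 5 arrays. In bulk RNA, fewer cells in S phase and less histone message per cell cannot be told apart.

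**Figure D1:**
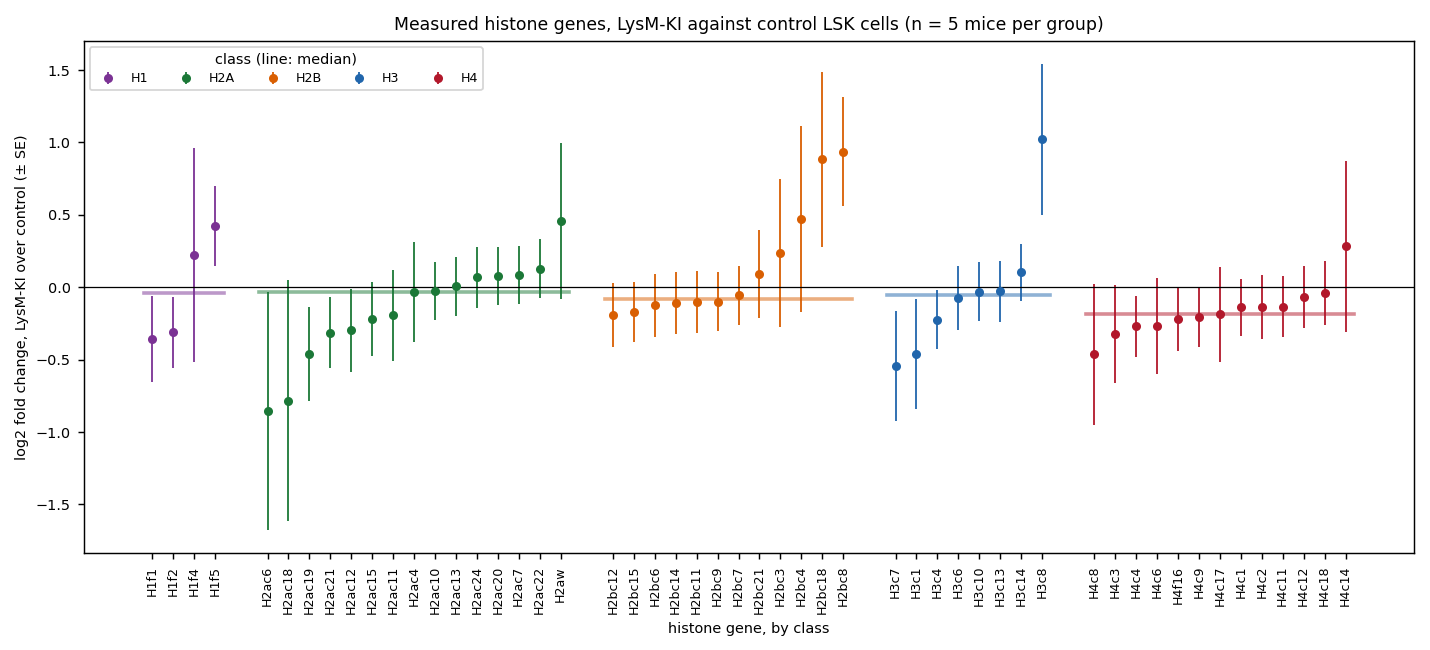
Log2 fold change of LysM-KI over control for each of the 52 measured histone genes, ordered within the classes H1, H2A, H2B, H3 and H4. Dots are limma estimates, bars their standard errors (n = 5 mice per group) and horizontal lines class medians, which run from -0.19 (H4) to -0.03 (H2A). All but 1 of the 13 H4 genes lie below 0.

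H1 linker histones bind DNA where it enters and leaves the nucleosome. Of 4 measured H1 genes, 2 were above and 2 below 0 (median -0.04), and none passed the threshold. H1f5 (Hist1h1b, chr13:21779832-21780625) had log2 intensities of 10.29, 10.90, 10.13, 9.72 and 10.92 on control arrays 1 to 5 and 10.70, 10.64, 10.96, 10.73 and 11.04 on LysM-KI arrays 1 to 5. Every LysM-KI array was above the control mean, but control replicates 2 and 5 were as high as the LysM-KI mice, and the log2 fold change was 0.43 (SE 0.28, limma adjusted p = 0.946). Without control replicate 4, the lowest, it was 0.26. For H1f2 (Hist1h1c) the levels were 8.85, 9.14, 8.73, 9.40 and 9.45 on control arrays 1 to 5 and 8.99, 8.89, 8.28, 8.94 and 8.90 on LysM-KI arrays 1 to 5. All 5 LysM-KI values were below the control mean and the groups overlapped (log2 fold change -0.31, SE 0.25, limma adjusted p = 0.948), with -0.18 when LysM-KI replicate 3 was left out. H1f1 (Hist1h1a) was at 8.61, 9.77, 8.97, 9.38 and 8.70 on control arrays 1 to 5 and 8.50, 8.62, 9.19, 9.07 and 8.28 on LysM-KI arrays 1 to 5, with control replicates 2 and 4 the highest of the 10 (log2 fold change -0.36, SE 0.30, limma adjusted p = 0.950). Without control replicate 2 it was -0.19. H1f4, detected on 4 control and 5 LysM-KI arrays, was at 0.22 (SE 0.74). Of the 3 genes that were not kept, H1f3 was detected on 1 array. The testis gene H1f6 and H1f10, which matches the symbol rule but is a histone made outside S phase, were detected on 0 of 10 arrays.

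H2A and H2B form the dimers that bind the H3 and H4 tetramer on either side in the nucleosome. Log2 fold changes of the 15 measured H2A genes centred on -0.03 (median), with 9 below 0. H2ac20 (Hist2h2ac, chr3:96220413-96220880), the H2A gene whose probe had the highest mean signal, was at 11.94, 12.30, 12.02, 12.31 and 12.07 on control arrays 1 to 5 and 12.02, 12.25, 12.26, 12.19 and 12.30 on LysM-KI arrays 1 to 5. All 10 values fell within a narrow band (log2 fold change 0.08, SE 0.20, limma adjusted p = 0.979, 95% interval from -0.36 to 0.51), and the fold change ran from 0.029 to 0.12 with 1 array left out and was 0.14 under median scaling. A second, dimmer H2ac20 probe, also detected on all 10 arrays, gave -0.46 (SE 0.31). H2ac19 (Hist2h2aa2), which shares its sequence with the neighbouring copy H2ac18 so that their signals may be mixed, was at 7.94, 8.19, 8.34, 8.50 and 7.13 on control arrays 1 to 5 and 6.90, 7.56, 7.39, 7.77 and 8.17 on LysM-KI arrays 1 to 5. Control replicate 5 was low among the controls and the groups overlapped (log2 fold change -0.46, SE 0.33, limma adjusted p = 0.946), and without LysM-KI replicate 1 the fold change was -0.30. H2ac21 (Hist2h2ab) was at 9.21, 9.26, 9.72, 10.15 and 9.30 on control arrays 1 to 5 and 8.99, 9.38, 9.26, 9.13 and 9.32 on LysM-KI arrays 1 to 5. Control replicates 3 and 4 were the highest, and all 5 LysM-KI arrays lay below the control mean (log2 fold change -0.31, SE 0.25, limma adjusted p = 0.948). Without control replicate 4 it was -0.16. The most negative value of all histone genes, that of H2ac6 (Hist1h2ac), came from levels of 6.89, 9.12, 6.62, 4.64 and 8.77 on control arrays 1 to 5 and 6.10, 4.86, 7.86, 6.37 and 6.58 on LysM-KI arrays 1 to 5. They were scattered in both groups, 1 array of each group was not detected, and the log2 fold change was -0.85 (SE 0.82, limma adjusted p = 0.950). It was -0.37, -0.46 and -0.47 without control replicate 2, control replicate 5 and LysM-KI replicate 2, -1.49 without control replicate 4, and -0.56 without background correction. H2ac8 and the testis gene H2ac1 were each detected on 1 control and 2 LysM-KI arrays and were not tested.

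Among 12 measured H2B genes, 7 had a negative log2 fold change and the median was -0.08. H2bc12 (Hist1h2bk, chr13:22035821-22036320), whose promoter is shared with H2ac12, had the H2B probe with the highest mean log2 signal, but before normalization the probe of H2bc6 was as bright (mean intensities 3692 and 3697). Its values were 11.73, 12.34, 11.81, 12.17 and 11.55 on control arrays 1 to 5 and 11.70, 11.67, 11.80, 11.65 and 11.80 on LysM-KI arrays 1 to 5. The LysM-KI mice lay close together with an SD of 0.072, against 0.324 among the controls, where replicates 2 and 4 were high (log2 fold change -0.19, SE 0.22, limma adjusted p = 0.957). The fold change was -0.090 without control replicate 2 and -0.098 under median scaling. H2bc8 (Hist1h2bg, chr13:23571400-23571863) was the only histone gene with an unadjusted p under 0.05 on the probe used. It was at 9.23, 8.23, 8.60, 8.84 and 7.21 on control arrays 1 to 5 and 9.13, 9.05, 9.69, 9.05 and 9.88 on LysM-KI arrays 1 to 5. The LysM-KI values began at 9.05 and 1 control array, replicate 1, lay among them. The group means were 8.42 ± 0.77 (SD, n = 5) in control and 9.36 ± 0.40 in LysM-KI cells, a log2 fold change of 0.94 (SE 0.38, unadjusted p = 0.0296, limma adjusted p = 0.881). Without control replicate 5, the lowest array, it was 0.63 and the unadjusted p was no longer under 0.05. The probe of H2ac8, which faces H2bc8, was detected on too few arrays to be compared. H2bc18 (Hist2h2bb) was at 4.99, 5.01, 5.52, 4.60 and 7.84 on control arrays 1 to 5 and 6.93, 6.36, 6.79, 5.19 and 7.13 on LysM-KI arrays 1 to 5. It was detected on only 2 control arrays, so part of its control values are background (log2 fold change 0.88, SE 0.60, limma adjusted p = 0.946). That fold change was 0.32 without background correction and 1.47 without control replicate 5. The mean of the H2B fold changes, 0.15, has the opposite sign to their median since H2bc8, H2bc18 and H2bc4 (0.47, SE 0.64) lie far above 0. The testis gene H2bc1 and H2bu2 were detected on 0 arrays and the pseudogene H2bu1-ps on 1.

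H3 and H4 form the tetramer at the centre of the nucleosome. Of the 8 measured H3 genes 6 were below 0, and the median log2 fold change was -0.05. H3c10 (Hist1h3h, chr13:21717628-21718115) had values of 11.45, 12.07, 11.63, 11.75 and 11.68 on control arrays 1 to 5 and 11.61, 11.72, 11.72, 11.61 and 11.76 on LysM-KI arrays 1 to 5. Apart from control replicate 2 the arrays were nearly level (log2 fold change -0.03, SE 0.20, limma adjusted p = 0.991, 95% interval from -0.48 to 0.42), and the sign turned under median scaling (0.042) and without control replicate 2 (0.058). H3c8 (Hist1h3g), with the highest fold change of the histone genes, was at 7.52, 8.76, 6.71, 5.66 and 8.15 on control arrays 1 to 5 and 8.66, 8.29, 7.94, 8.11 and 8.90 on LysM-KI arrays 1 to 5. The LysM-KI arrays were alike while the controls spanned more than 3 log2 units, from replicate 4 at the bottom to replicate 2 at the top. Its log2 fold change was 1.02 (SE 0.52, limma adjusted p = 0.938). Without control replicate 4 it was 0.59, and without background correction 0.63. H3c7 (Hist1h3f) was at 8.28, 10.02, 9.41, 10.29 and 9.37 on control arrays 1 to 5 and 8.68, 8.60, 8.80, 8.96 and 9.61 on LysM-KI arrays 1 to 5. Control replicates 2 and 4 were again the highest (log2 fold change -0.54, SE 0.38, limma adjusted p = 0.946). The fold change was -0.85 without control replicate 1, -0.34 without control replicate 4, and -0.26 when LysM-KI replicate 2 was dropped along with the latter. H3c1 (Hist1h3a) was at 7.03, 8.81, 8.36, 8.86 and 8.05 on control arrays 1 to 5 and 7.98, 6.95, 7.75, 8.11 and 8.01 on LysM-KI arrays 1 to 5. All 5 LysM-KI arrays lay below the control mean, but so did control replicates 1 and 5 (log2 fold change -0.46, SE 0.38, limma adjusted p = 0.950). The fold change was -0.76 without control replicate 1, -0.30 without control replicate 4, -0.25 without LysM-KI replicate 2 and -0.09 with the last 2 arrays both left out. H3c3 was detected on 1 control and 3 LysM-KI arrays and was not tested.

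H4 leaned most to one side: 12 of 13 genes (92.3%) were below 0 and the median log2 fold change was -0.19. Values were small, from -0.46 for H4c8 to 0.28 for H4c14, and no H4 gene passed the threshold in limma (smallest adjusted p 0.948). H4c11 (Hist1h4j, chr13:21735034-21735456), the H4 gene whose probe had the highest mean signal, was at 12.05, 12.66, 12.49, 12.47 and 12.26 on control arrays 1 to 5 and 12.11, 12.19, 12.37, 12.21 and 12.39 on LysM-KI arrays 1 to 5. The difference was smaller than the spread between control mice (log2 fold change -0.13, SE 0.21, limma adjusted p = 0.961), with -0.22 when control replicate 1 was left out, -0.063 without control replicate 2 and -0.076 under median scaling. H4c4 (Hist1h4d, chr13:23581568-23581969) was at 10.91, 11.03, 10.83, 11.28 and 10.66 on control arrays 1 to 5 and 10.55, 10.93, 10.64, 10.69 and 10.55 on LysM-KI arrays 1 to 5. All LysM-KI arrays were below the control mean, and LysM-KI replicate 2 stood above control replicates 1, 3 and 5 (log2 fold change -0.27, SE 0.21, limma adjusted p = 0.948, 95% interval from -0.73 to 0.19). H4f16 (Hist4h4), which lies alone on chromosome 6, was at 9.88, 10.16, 10.28, 10.37 and 9.82 on control arrays 1 to 5 and 9.61, 9.82, 9.91, 9.95 and 10.10 on LysM-KI arrays 1 to 5. Controls 2, 3 and 4 were the highest of the 10 (log2 fold change -0.22, SE 0.22, limma adjusted p = 0.950). H4c9 (Hist1h4i) was at 11.04, 11.32, 11.18, 11.32 and 10.88 on control arrays 1 to 5 and 10.82, 10.91, 10.83, 10.94 and 11.21 on LysM-KI arrays 1 to 5. LysM-KI replicate 5 stood with the controls and the other 4 lay below all controls but replicate 5 (log2 fold change -0.21, SE 0.20, limma adjusted p = 0.950). Under median scaling it was -0.13. Since the H4 probes may read one another's messages, the 12 genes are not 12 separate observations. The H4 median was -0.05 when control replicate 4 and LysM-KI replicate 2, whose mean correlation with the other arrays was the lowest of their groups, were left out.

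**Figure D2:**
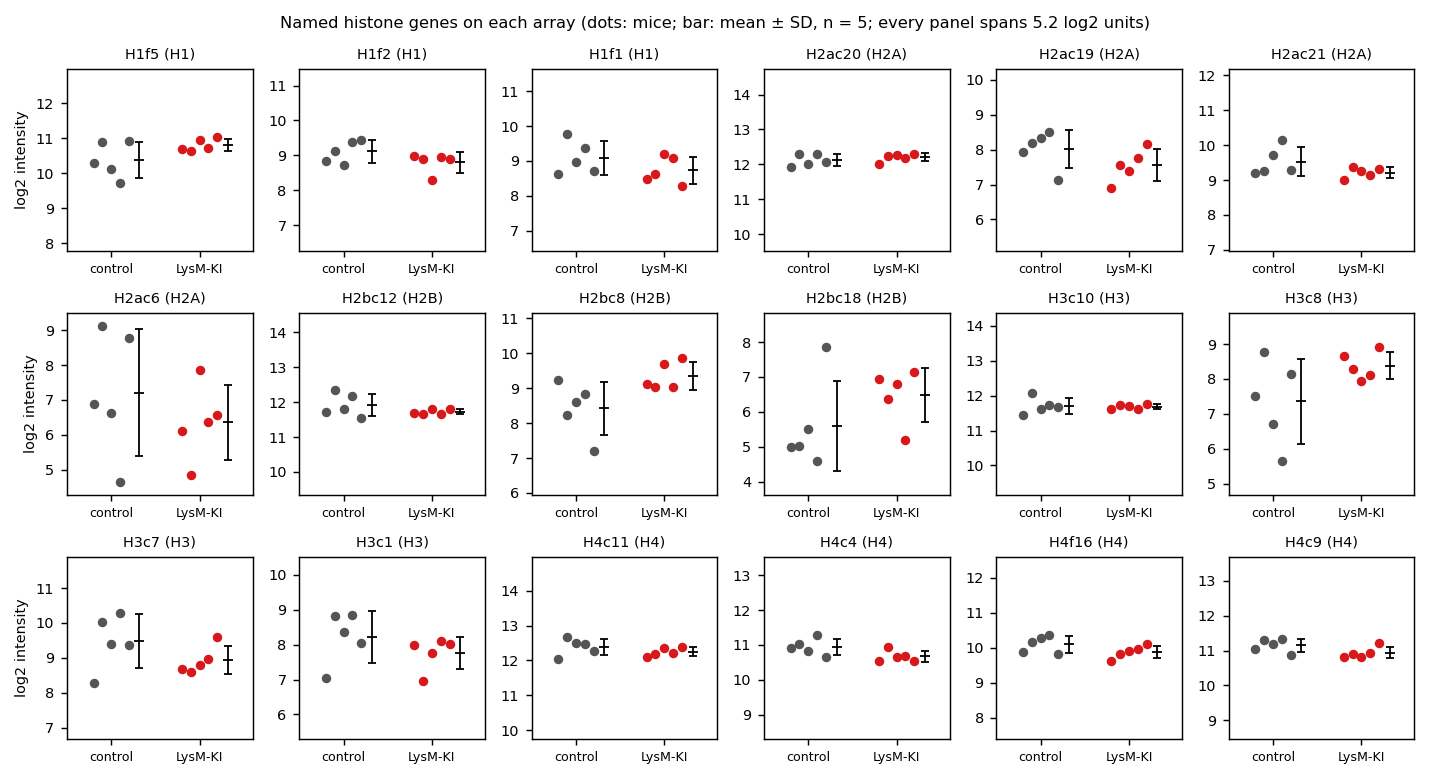
Log2 intensity of the 18 named histone genes in each mouse, control in grey and LysM-KI in red, with mean ± SD (n = 5) beside the dots. Every panel spans the same number of log2 units, so that the wide scatter of H2ac6, H2bc18 and H3c8 can be set beside the narrow bands of H2ac20, H3c10 and H4c11. The groups overlap in every panel.

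The mice of a group differed among themselves in histone level, often by more than the groups did. On control replicate 2, 44 of the 52 genes were above their own mean over the 10 arrays, on control replicate 4 it was 40 and on LysM-KI replicate 5 it was 38. Only 12 were above it on LysM-KI replicate 1 and 13 on control replicate 5. As shares these ran from 23.1% to 84.6%, while for all kept probes the shares ran from 46.6% to 55.4%. High and low arrays occurred in both groups. Control replicate 2 also had the highest mean level of the 14 measured mature-cell markers, 9.05 against 7.74 to 8.40 on the other 9 arrays. On it 6 of the 14 peaked, among them S100a9 of neutrophils (11.57) and Hbb-bt of erythroid cells (11.38). Not all markers rose: Cd8a (6.22) and Pf4 (7.20) had their lowest value of the 10 arrays on this array. Without that array 31 of 52 histone genes were below 0, with a median of -0.05. Mean histone levels were 9.79 ± 0.16 (SD, n = 5) on control and 9.74 ± 0.19 on LysM-KI arrays, a difference of -0.06 that is smaller than either SD. For H4, 12 of 13 genes were above their mean on each of controls 2 and 4, and 11 on each of control replicate 3 and LysM-KI replicate 5. For H2A it was 14 and 11 of 15 on controls 2 and 4. LysM-KI replicates 2 and 5 had 11 and 10 H2A genes above their mean, and LysM-KI replicate 1 had 0. By mean deviation, H2A was at 0.44 on control replicate 2, -0.08 on control replicate 4 and -0.53 on LysM-KI replicate 1. For H1, control replicates 2 and 5 were the extremes at 0.66 and -0.60. The low value of control replicate 5 came from H1f4, at 4.92 there, while 2 of the 4 H1 genes were above their own mean on it. The class means per group differed by -0.16 for H2A, 0.15 for H2B, -0.03 for H3 and -0.17 for H4, each less than the SD between the arrays of either group.

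**Figure D3:**
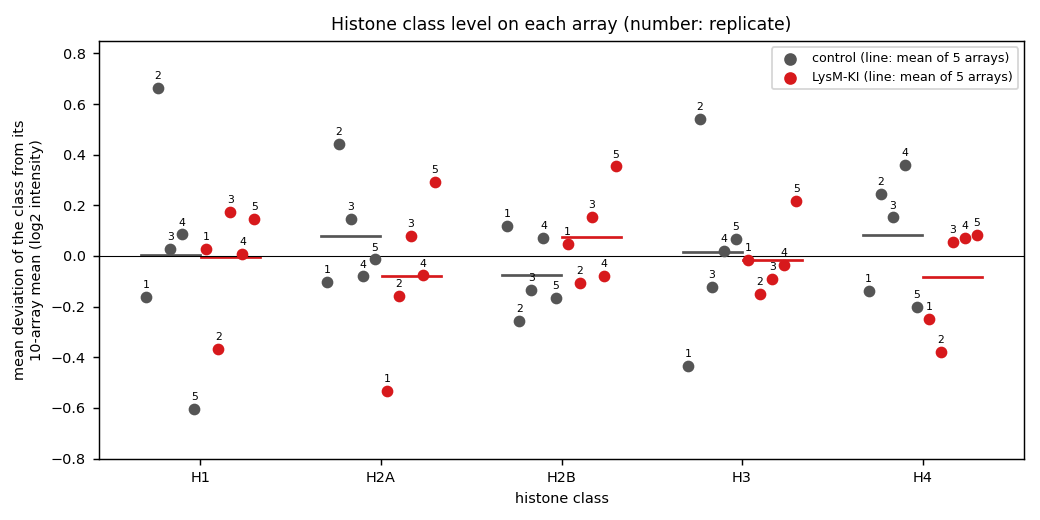
Mean deviation of each histone class from its mean over the 10 arrays (log2 intensity), for each array, labelled by replicate, with group means as lines. Control replicate 2 is the highest array for H1, H2A and H3 (0.66, 0.44 and 0.54) but the lowest for H2B (-0.26), where 6 of 12 genes were above their own mean, and the groups overlap in all 5 classes.

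**Figure D4:**
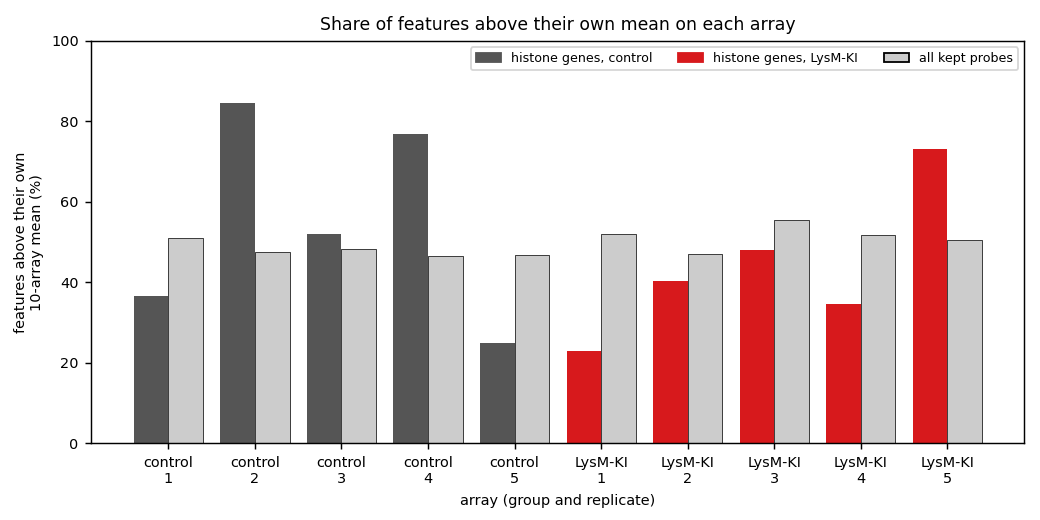
Percentage of the 52 measured histone genes (grey, control; red, LysM-KI) and of all kept probes (light bars) above their own mean over the 10 arrays. The histone share swings from 23.1% on LysM-KI replicate 1 to 84.6% on control replicate 2, while that of all probes stays between 46.6% and 55.4%.

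Scatter also depended on signal. The 26 histone genes with a mean log2 intensity of 10 or above had fold changes from -0.27 to 0.43 and a median SE of 0.21, against a range from -0.85 to 1.02 and a median SE of 0.36 for the 26 below 10. Among the brighter genes the median SD between mice was 0.12 in the LysM-KI group and 0.23 in the control group. Over all 1749 kept probes at that level it was 0.22 and 0.29. The LysM-KI spread was thus lower there too, but by less than among the histone genes. Of the 26 brighter histone genes 18 were below 0, and of the 26 dimmer ones also 18. Over all kept probes 43.0% of the brighter and 47.1% of the dimmer were below 0.

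Probes of one gene were set side by side where several were kept. Of 20 such genes, 9 had fold changes of the same sign on all kept probes and 11 did not. H2bc4 had 0.47 on its brightest probe and -1.37 on the other (SE 0.59, limma unadjusted p = 0.0405, adjusted p = 0.917). On that second probe H2bc4 was thus lower at an unadjusted p under 0.05. H2ac18 had values from -0.78 to 0.81. For H3c4 they were -0.22 on the brightest and 0.90 on the other, which was detected on 4 of 5 control arrays. Of the genes given array by array, the dimmer kept probe gave -0.07 for H1f2, -0.46 for H2ac20, -0.10 for H2bc12 and 0.03 for H3c7. The dimmer kept probes of H3c10 gave -0.39 and 0.25. Among H4 genes the sign was the same for H4c2, H4c6, H4c12 and H4c18 (from -0.43 to -0.04) and opposite for H4f16. When all kept probes of a gene were averaged, 38 of 52 genes were below 0 with a median of -0.12.

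By position, the 24 measured genes of the distal part of the chromosome 13 cluster (chr13:23531044-23764412, GRCm38.p6) were at a median of -0.13, and 18 of them were below 0. In the proximal part (chr13:21716412-22043658) the median was -0.11 and 13 of 17 were below 0. On chromosome 3 (chr3:96219885-96270192) it was 0.08, with 4 of 9 below 0. Facing H2A and H2B genes were sought only among the 55 of 61 genes with a promoter sequence, so pairs may be missing. Of the 6 pairs found, 163 to 280 bases apart, 4 had both members measured. H2ac12 and H2bc12 were at -0.30 (SE 0.29) and -0.19 (SE 0.22), H2ac15 and H2bc15 at -0.22 and -0.17, and H2ac11 and H2bc11 at -0.19 and -0.10. H2ac7 and H2bc7 had opposite signs at 0.08 and -0.06. All of these lie within or little beyond 1 SE of 0.

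Genes that make and handle histone messages were measured alongside. Of the histone pre-mRNA processing and histone gene control list, 19 genes were kept, 14 above and 5 below 0, with a median of 0.15, and 0 passed the adjusted threshold. Beside this and the lists that follow, 46.6% of all kept probes were below 0, with a median of 0.03. At an unadjusted p under 0.05 only Npat was higher (1 of 19, against 3.40% of all kept probes), at 7.56, 5.02, 6.98, 6.16 and 6.20 on control arrays 1 to 5 and 7.30, 7.11, 8.42, 8.70 and 6.69 on LysM-KI arrays 1 to 5. The 2 highest values, of LysM-KI replicates 3 and 4, lay above every control, and the log2 fold change was 1.26 (SE 0.53, unadjusted p = 0.0354, limma adjusted p = 0.885). Npat was detected on only 4 of 5 control arrays, and 5.02 on control replicate 2 was its lowest value. Of its 3 probes 2 were kept, and only the brightest was compared here. Slbp, the stem-loop binding protein gene, was at 9.16, 8.30, 7.34, 7.70 and 7.76 on control arrays 1 to 5 and 9.03, 8.19, 8.63, 8.01 and 8.37 on LysM-KI arrays 1 to 5, a log2 fold change of 0.39 (SE 0.36). Casp8ap2 (FLASH), which works with the U7 particle, was at -0.02 (SE 0.28). Eri1, an exonuclease that trims histone messages, Tut4, a terminal uridylyltransferase, and the Y-box factor Ybx3 were at 0.91 (SE 0.68), 0.57 (SE 0.40) and 0.61 (SE 0.35).

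Histone chaperones, which carry histones to and from DNA, were above 0 in 12 of 18 cases (median 0.14). Nap1l1, an H2A and H2B chaperone, was at 0.32 (SE 0.22), Hira, which deposits the variant H3.3, at 0.66 (SE 0.55) and Mms22l, which acts at stalled forks, at 0.43 (SE 0.38). Hjurp, which loads the centromeric H3 variant, was at -0.43 (SE 0.29). Of the 8 measured replication-independent histones 5 were above 0 (median 0.07). H3f3a, which encodes H3.3, was at 0.50 (SE 0.30), H2aj at 0.44 (SE 0.41), H2az2 at -0.26 (SE 0.42) and the centromeric variant gene Cenpa at 0.25 (SE 0.36). In both lists limma called 0 genes, and 0 had an unadjusted p under 0.05.

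Of the S phase genes, 19 of 28 were above 0 (median 0.09). The licensing factor Cdt1 was at 0.48 (SE 0.31), the helicase subunits Cdc45 and Gins1 at 0.59 (SE 0.45) and 0.43 (SE 0.25), and the flap endonuclease Fen1 at 0.45 (SE 0.30). Genes of G2 and M phase were above 0 in 10 of 17 cases (median 0.04). Bub1b, of the spindle checkpoint, was at 0.89 (SE 0.28, limma unadjusted p = 0.00877), Ube2c, a ubiquitin-conjugating enzyme of mitotic exit, at -0.84 (SE 0.28, limma unadjusted p = 0.0114), Aurkb at 0.61 (SE 0.44) and Kif20a at -0.58 (SE 0.31). No gene of either list passed in limma (smallest adjusted p 0.792). Bub1b and Ube2c were the only ones with an unadjusted p under 0.05, 1 of 17 in each direction against 3.40% (higher) and 1.94% (lower) of all kept probes. Array by array, control replicate 5 was low both for S phase genes (mean deviation -0.42, 7 of 28 above their mean) and for histones (13 of 52). Control replicate 2 was at 0.13 for S phase genes and had the most histone genes above their mean. LysM-KI replicate 5, with 38 of 52 histone genes above their mean, was at -0.10 for S phase genes, and LysM-KI replicate 1, with 12 of 52, was at 0.16. The order of the arrays thus differed between histone and S phase genes.

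**Figure D5:**
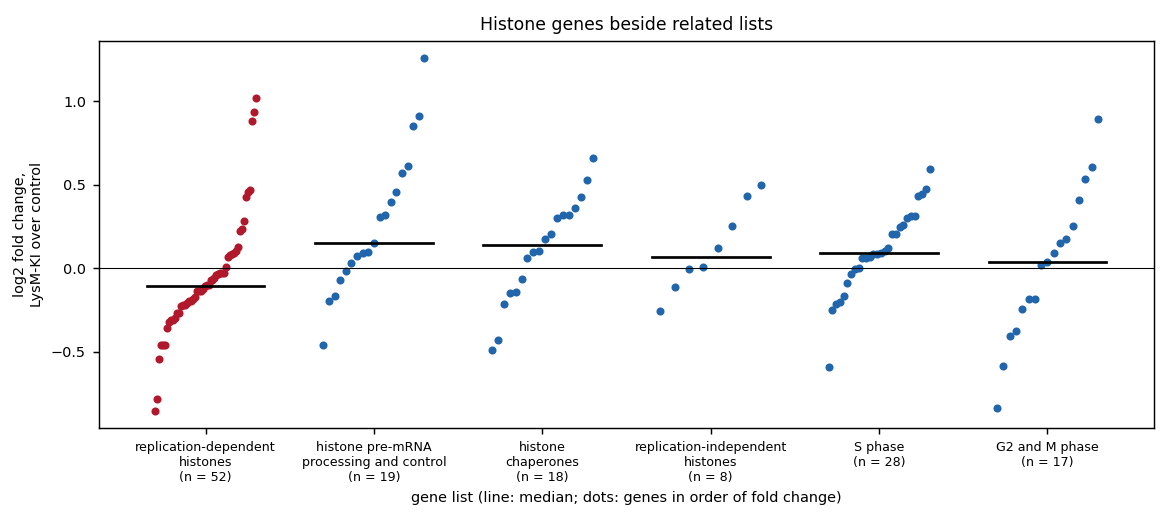
Log2 fold change of each measured gene (dots, in rising order within a list) of the replication-dependent histones and of 5 related lists, with medians as lines. The histone median is -0.11 and the other medians run from 0.04 to 0.15, beside 0.03 over all kept probes. Each list holds genes on both sides of 0.

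Facts of the whole series bear on these values. Between 15234 and 18801 probes were detected per array, fewest on control replicate 4, and 50 to 55 of the 61 histone genes. Xist, the X inactivation transcript, was high on control replicate 4 and LysM-KI replicate 4 (11.81 and 11.69) and at most 7.08 elsewhere. Without both of these mice 33 of 52 histone genes were below 0, with a median of -0.04. Of 12 LSK gate genes with a probe 9 were detected on all 10 arrays, including Kit, Cd34 and Flt3, and Slamf1 on 2. Of 23 mature-lineage genes with a probe, 10 were detected on all arrays, including Siglech, Mcpt8 and Vpreb1, and 3 (Cd3g, Itgam and Ncr1) on none. The mean level of the 14 that were kept ran from 8.12 to 9.05 on control arrays (mean 8.35) and from 7.74 to 8.40 on LysM-KI arrays (mean 8.08). That gap is wider than the histone one but smaller than the SD between arrays of either group (0.40 in control, 0.28 in LysM-KI). Apart from replicate 2, the control arrays were at 8.12 to 8.27. The part of these markers in the histone values was not tested. Leaving out control replicate 2 cannot test it, since that array also had the most histone genes above their mean.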

How the data were processed

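RNA of LSK cells was amplified and hybridised to Illumina arrays, per the labels' protocols. The deposited intensities are bead summaries per probe and array with no background correction or normalization, per the file headers. The deposited detection column holds the fraction of negative controls that a probe exceeds, taken here as 1 minus the detection p. It follows each array's own intensity (lowest Spearman correlation 0.990). The authors' log2 values in the series matrix were matched, within 0.0131, by quantile-normalized log2 intensities minus each probe's median. They served as an alternative.

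Background was corrected with normexp against the negative controls (offset 16), arrays were quantile-normalized (neqc, limma 3.58.1, R 4.3.3), and probes detected on at least 5 of 10 arrays were kept. A 2-group limma model (two-sided, 11.1 degrees of freedom) was fitted to all 17245 kept probes with Benjamini-Hochberg adjustment at 0.05. It was tested on simulated data. Depth has no count here: the number of arrays limits the precision, with a median SE of 0.39 over all kept probes and 0.23 over histone genes. Each array is 1 mouse, so the p-values set the group difference against the spread between arrays. That spread holds differences between mice and technical differences, which cannot be separated here.

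Probe annotation was the platform's, updated through gene identifiers to RefSeq (99.8% found). Of 45281 probes 34885 had 1 symbol, 18 several and 10378 none. Values on every array are given, per class, for the gene with the highest mean level and up to 3 with the smallest unadjusted p. Of each related list up to 4 genes with the smallest p are named, with Slbp, Npat and Casp8ap2. The histone genes, lists and tests were chosen with earlier results of these data known, so no list is independent support. Alternatives covered background correction, normalization, filters, the probe standing for a gene, the replicate block and left-out arrays.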

Additional observations from a re-analysis of the deposited data

Results flagged for a closer look

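Sets of 5 arrays were searched for a single array far from the rest, with the gap to its nearest neighbour divided by the whole range compared with Dixon's critical value of 0.71. Of 50 sets (18 named histone genes and 7 summary levels, in each group) 2 exceeded it, where chance gives about 1 in 20. H1f2 was at 8.28 on LysM-KI replicate 3, while the other LysM-KI arrays were between 8.89 and 8.99 (ratio 0.870). H2bc18 was at 7.84 on control replicate 5, while the other controls were between 4.60 and 5.52 (ratio 0.716).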

How the results depend on the processing

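In every alternative run, limma called 0 probes and 0 histone genes at the adjusted threshold. At an unadjusted p under 0.05 there were 922 probes in the main run. The count was 531 among probes detected on all 10 arrays and 1848 with no filter on dim probes, where sets of other sizes were tested. It ran from 743 to 1223 in the other runs. Histone genes below 0 numbered 30 (median scaling) to 38 of 52 where the filter was unchanged. With no filter on dim probes they were 37 of 61, and 34 of 47 among genes detected on all 10 arrays. Over all runs the histone median ran from -0.20 to -0.03. The H4 median stayed below 0, from -0.27 to -0.05, while those of H1 (-0.34 to 0.20), H2A (-0.25 to 0.05), H2B (-0.16 to 0.01) and H3 (-0.15 to 0.03) took both signs. On the probe used for each gene, 0 histone genes were lower at an unadjusted p under 0.05, and 0 to 2 when 1 array was left out. The genes were H3c1 and H3c7 without control replicate 1, and H2ac12 and H2ac19 without control replicate 5. The 1 gene that was higher, H2bc8, was joined by H3c8 under median scaling (2 genes). With 1 array left out this count ran from 0 to 2: none without LysM-KI replicate 3 or 5, H3c8 alone without control replicate 2, and H2bc18 with H3c8 without control replicate 5. The cause was not tested. H3c10 turned to 0.042 under median scaling and ran from -0.098 to 0.058 with 1 array left out, above 0 without control replicate 2. The other 17 named histone genes kept their sign on the probe chosen for each. Same-numbered arrays did not deviate together (correlations from -0.03 to 0.06). The labels do not say whether the numbers pair mice, and such correlations cannot decide it. With the replicate block 0 histone genes passed (smallest adjusted p 0.873) and 1 was higher at an unadjusted p under 0.05, H3c8 in place of H2bc8. Of the 52 genes 47 were detected on all 10 arrays, and the others have values at background on some. The 26 genes below a log2 intensity of 10 had a median SE of 0.36, against 0.21 for the brighter 26.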
